A study of Mus musculus with 8 samples.

Results

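The genes described here are 35 members of the endoplasmic reticulum (ER) folding and stress network, chosen by symbol from the 55492 genes of the deposited tables. They comprise 13 chaperones and cochaperones, 6 protein disulfide isomerases, 3 genes of the protein-conducting channel (translocon), 9 genes of ER-associated degradation, and 4 genes of the unfolded protein response itself, namely the stress sensors Atf6, Ern1 and Eif2ak3 and the transcription factor Xbp1. All 35 symbols were found, and 34 members passed the expression filter. RNA came from YUMM5.2, a mouse melanoma cell line on a C57B/6J background per the labels, after 20 h with 4-OI (4 libraries) or with the solvent DMSO alone (4 libraries). The labels call 4-OI a permeable itaconate, and in this field the name stands for 4-octyl itaconate, an ester of the macrophage metabolite itaconate. Its dose and the line's genotype are given by none of those labels, and no group received a known inducer of ER stress. The labels speak of separate sequencing experiments but not of separate cultures, so p-values measure the spread between these libraries, which may be technical.

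Proteins bound for the cell surface or for secretion enter the ER through the translocon, fold there with the help of chaperones, lectins and disulfide isomerases, and are sent back to the cytosol for destruction if folding fails. When unfolded proteins build up, the chaperone BiP leaves the membrane sensors ATF6, IRE1 and PERK. The cleaved ATF6 fragment and the spliced form of XBP1 then raise transcription of folding and degradation genes, while PERK slows translation. Tumour cells with a high secretory load are known to lean on this network.

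Total counts ran from 22962963 to 31361677 per library. Levels are given as CPM, counts scaled to library size, to compare libraries, and as TPM, which also allow for transcript length, to compare genes; log2 fold changes are 4-OI over DMSO. Of 13531 genes tested with edgeR, 38.8% had a Benjamini-Hochberg adjusted p under 0.05 and count as called, 19.3% higher and 19.6% lower in 4-OI, and the median log2 fold change of all tested genes was 0.00. In 18.0% of tested genes all 4 4-OI libraries lay below all 4 DMSO libraries. Of 8 pigment cell markers 1 passed the filter, Mitf, which was called higher at 9.99 ± 0.536 CPM in 4-OI and 6.42 ± 0.415 CPM in DMSO libraries (SD, n = 4 each), while the defining pigment genes Tyr, Tyrp1, Dct and Mlana had 0 or 1 count in every library. The summed CPM of 7 immune cell markers was 1.47 to 2.304 in 4-OI and 1.93 to 2.47 in DMSO libraries, with Adgre1 at 0 throughout. Sums for 4 endothelial markers (0.0773 to 0.319 CPM in 4-OI, 0.128 to 0.229 in DMSO, Kdr at 0) and 3 keratinocyte markers (2.21 to 2.63 CPM in 4-OI, 1.76 to 2.704 in DMSO) were also low. That of 4 fibroblast markers was 111 to 118 CPM in 4-OI and 105.2 to 114 CPM in DMSO libraries, nearly all of it Pdgfra (called higher, log2 fold change 0.10), with Dcn called lower (-1.39) and Lum at 0. The part of these markers in the results below was not tested, and in bulk RNA fewer cells of a type cannot be told apart from less RNA per cell.

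Of the 34 tested members, 27 were lower in 4-OI, 3 were higher and 4 were not called, next to 19.6% lower and 19.3% higher among all genes tested. Their median log2 fold change was -0.19, against -0.01 in all tested genes with a mean of at least 30 TPM. The members had a median of 96.7 TPM, and the shares over all genes were not matched for abundance. In 26 members every 4-OI library lay below every DMSO library, as in 18.0% of all tested genes. In 3 members every 4-OI library lay above, and in 5 the groups overlapped. The share of all tested genes was not counted for these last patterns, so those numbers are description only. The falls were modest and ran from 4.52% to 26.0% in the genes called lower. Across all genes tested, 872 (6.44%) had a log2 fold change below that of Hspa5. By role the counts differed as follows, and differences between roles were not tested. Among the 19 chaperones and disulfide isomerases 18 were lower and 1 was higher (median log2 fold change -0.25). All 3 translocon genes were lower, with a median of -0.16. The sensors with Xbp1, 4 genes, gave 3 lower and 1 higher, with a median of -0.17. The 8 tested degradation genes gave 3 lower, 1 higher and 4 not called, with a median of -0.04. The members that rose were Calr3, Edem2 and Atf6.

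**Figure D1:**
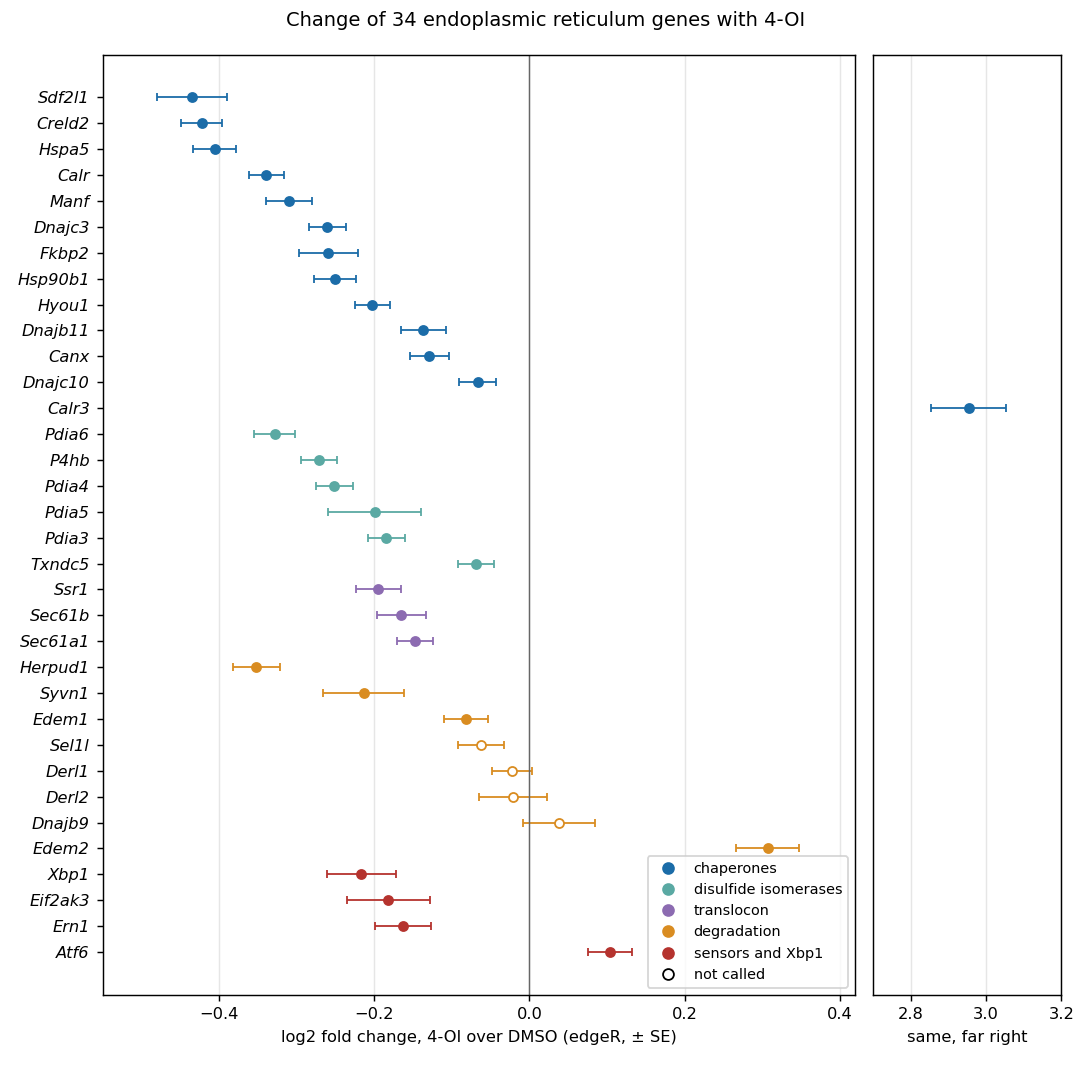
Log2 fold change of 4-OI over DMSO for the 34 tested members (edgeR estimate, bars ± standard error), grouped by role. Filled points passed the test and open points did not. Most points lie between -0.43 and 0, the right panel carries Calr3 at 2.95, and Edem2 and Atf6 are the other filled points right of 0.

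Summed over the 35 members, transcript abundance per length was 8080.1 ± 98.6 TPM in 4-OI and 9619 ± 146 TPM in DMSO libraries (SD, n = 4 each), a total 16.0% lower. The per-library sums were 8073, 7981, 8050.4 and 8216 TPM in 4-OI, against 9616, 9784, 9647 and 9431 TPM in DMSO, and the groups did not overlap. These sums were 0.808% of all transcripts by TPM in 4-OI and 0.962% in DMSO. The chaperone sum was 4924 ± 105 TPM in 4-OI against 6028 ± 101 TPM in DMSO, which is 18.3% lower. Disulfide isomerases summed to 1965 ± 9.25 TPM in 4-OI and 2291 ± 36.9 TPM in DMSO, 14.2% lower, and translocon genes to 726 ± 6.47 TPM in 4-OI and 807 ± 9.54 TPM in DMSO, 9.97% lower. The degradation genes had far smaller sums, 354 ± 8.35 TPM in 4-OI and 376 ± 13.3 TPM in DMSO, and the sensors with Xbp1 111 ± 2.88 TPM in 4-OI and 118 ± 6.49 TPM in DMSO. The 8 most abundant members, Calr, Hsp90b1, Hspa5, Pdia3, Canx, Sec61b, Pdia6 and P4hb, held most of the total, at 6119 ± 110.0 TPM in 4-OI and 7389.7 ± 119 TPM in DMSO. No test was made of these sums.

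**Figure D2:**
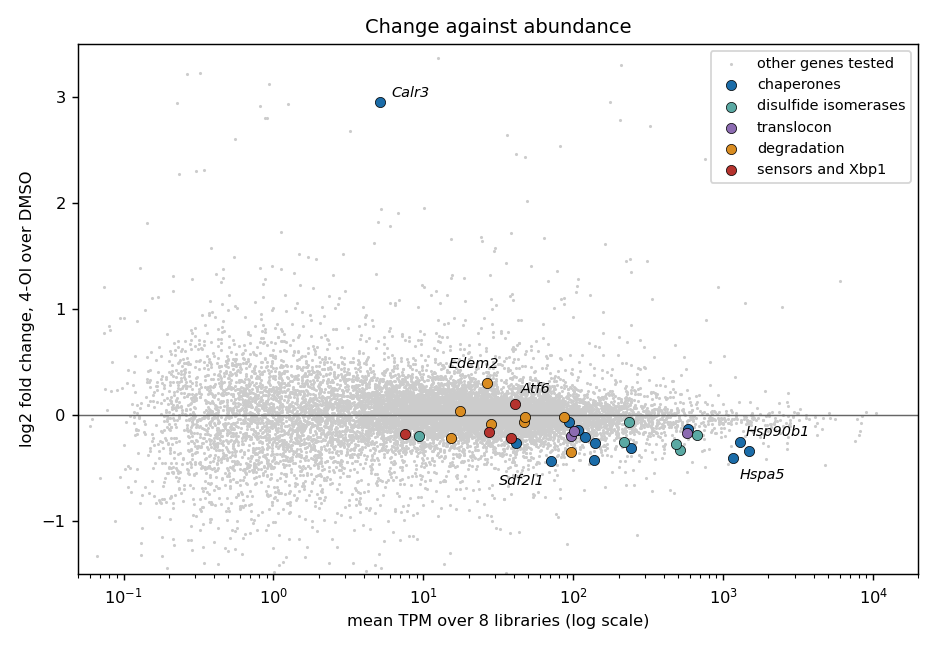
Log2 fold change of 4-OI over DMSO (edgeR) against mean TPM over the 8 libraries (log axis) for the members, coloured by role, and for the other genes tested in grey; 39 of the 13531 genes, none a member, lie outside the axes. Members at the abundant end, such as Hspa5 and Hsp90b1, sit below 0, and Calr3 stands at the low-abundance end with a log2 fold change of 2.95.

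The promoters of these genes are shown because the ER stress response element (ERSE) is the known docking site for ATF6 together with the CCAAT-binding factor NF-Y, and the members that carry it can be read off directly. RefSeq windows from 250 bases before each RefSeq start (build GRCm38.p6) were available for 30 of the 35 members, not for Atf6, Derl1, Hyou1, Manf and Sec61a1. They were searched on both strands for the exact ERSE, which is CCAAT and CCACG with any 9 bases between them. It was found in 9 of the 30 members (30.0%) and in 35 of 27021 genes with a window (0.130%). The members were chosen as genes of the ER folding and stress network, so these shares are description and no test of enrichment. The 9 were Hspa5, Hsp90b1, Calr, Canx, Creld2, Dnajc3, Pdia6, Syvn1 and Derl3. The 8 of them that could be tested were all lower in 4-OI, with a median log2 fold change of -0.29, next to 19.6% lower among all genes tested. Outside the members, 8 tested genes carried the element, and of these 1 was lower, 1 was higher and 6 were not called, with a median of 0.09. Of the 21 members with a window but no exact ERSE, 16 were lower, 2 were higher and 3 were not called, with a median of -0.16. The elements, read 5′ to 3′ on their own strand with every base in capitals, show the fixed ends around a variable middle.
Hspa5: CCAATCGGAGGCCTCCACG
Canx: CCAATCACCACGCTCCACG
Dnajc3: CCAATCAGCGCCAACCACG
Pdia6: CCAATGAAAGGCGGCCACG
Syvn1: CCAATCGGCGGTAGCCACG
Derl3: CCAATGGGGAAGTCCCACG

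The Hspa5 element stood 65 to 47 bases before the RefSeq start, that of Syvn1 44 to 26 bases, that of Pdia6 98 to 80 bases, that of Dnajc3 105 to 87 bases and that of Canx 145 to 127 bases, all on the gene's strand. The Derl3 element lay on the opposite strand 156 to 138 bases before the start. The RefSeq start of Hspa5 lies downstream of the GENCODE M21 gene start, so this element falls inside the gene's GENCODE span. An exact match is a description of these letters, and no binding was measured.

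Hsp90b1 carried an ERSE on each strand, and it is printed with the promoters of Calr and Creld2, which also fell, to show where the elements lie. In each, the gene's strand is written 5′ to 3′, it ends at the base before the RefSeq or the GENCODE M21 start, whichever lies further upstream, and capitals mark the ERSE; where the element lies on the opposite strand the capitals begin with CGTGG and end with ATTGG. The stretches are chr10:86705510-86705694 for Hsp90b1 (minus strand), chr8:84846935-84847181 for Calr (minus strand) and chr15:88819396-88819645 for Creld2 (plus strand), all RefSeq, GRCm38.p6. Counted from the RefSeq start, the Hsp90b1 elements lay 212 to 194 bases (gene's strand) and 107 to 89 bases (opposite strand) before it, that of Calr 162 to 144 bases and that of Creld2 126 to 108 bases, both on the opposite strand.
Hsp90b1: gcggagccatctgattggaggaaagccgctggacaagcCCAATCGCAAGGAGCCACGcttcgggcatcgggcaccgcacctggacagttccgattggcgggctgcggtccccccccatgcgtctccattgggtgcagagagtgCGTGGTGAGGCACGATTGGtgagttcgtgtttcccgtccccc
Calr: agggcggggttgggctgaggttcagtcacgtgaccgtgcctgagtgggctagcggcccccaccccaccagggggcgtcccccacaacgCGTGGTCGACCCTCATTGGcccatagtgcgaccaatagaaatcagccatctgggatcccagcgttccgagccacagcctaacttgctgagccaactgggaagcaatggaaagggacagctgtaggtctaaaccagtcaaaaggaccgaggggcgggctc
Creld2: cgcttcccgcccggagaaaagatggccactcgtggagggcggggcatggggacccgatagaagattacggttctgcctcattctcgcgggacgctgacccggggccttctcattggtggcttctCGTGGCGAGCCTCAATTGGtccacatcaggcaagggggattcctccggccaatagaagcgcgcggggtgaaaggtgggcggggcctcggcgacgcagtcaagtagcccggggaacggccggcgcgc

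Herpud1 is shown for the other form of the element, ERSE-II, in which ATTGG and CCACG are 1 base apart. Of the 30 members with a window Herpud1 alone held that form, which 10 of 27021 genes carried (0.0370%). Capitals mark the element in the plus strand of chr8:94386179-94386428. The promoters of Calr3 (minus strand, chr8:72443871-72444028) and Edem2 (minus strand, chr2:155729476-155729725), members that rose, held no exact ERSE, ERSE-II or UPRE in their windows and are printed without capitals.
Herpud1: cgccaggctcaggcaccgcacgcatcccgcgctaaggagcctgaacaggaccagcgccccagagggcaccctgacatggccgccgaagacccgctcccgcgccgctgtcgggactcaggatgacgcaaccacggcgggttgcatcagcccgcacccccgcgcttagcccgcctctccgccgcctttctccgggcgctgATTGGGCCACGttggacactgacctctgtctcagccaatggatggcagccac
Calr3: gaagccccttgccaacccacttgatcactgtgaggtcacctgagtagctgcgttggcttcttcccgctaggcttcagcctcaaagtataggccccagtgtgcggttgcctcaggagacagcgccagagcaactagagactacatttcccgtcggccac
Edem2: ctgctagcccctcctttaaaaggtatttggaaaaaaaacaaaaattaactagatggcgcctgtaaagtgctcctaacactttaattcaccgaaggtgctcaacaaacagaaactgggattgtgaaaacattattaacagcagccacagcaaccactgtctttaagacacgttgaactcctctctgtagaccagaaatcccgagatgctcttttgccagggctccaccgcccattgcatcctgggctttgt

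The UPRE, TGACGTGG, a site known for XBP1 and ATF6, was found in Txndc5 alone of the 30 members with a window. That window lies inside the gene's GENCODE span, and 0.603% of all genes with a window held the site. The core CCACG by itself, which also lies inside every ERSE and ERSE-II, stood in 21 of the 30 members (70.0%) and in 31.0% of all genes. A window without a match shows only that these letters are absent from it.

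Among the chaperones, Hspa5 encodes BiP, the Hsp70 of the ER lumen that binds nascent chains and holds the sensors inactive (GRCm38 chromosome 2, 34771970 to 34777547). It had 1552, 1486, 1566 and 1628 CPM in the 4-OI libraries, against 2034, 2120.4, 2079 and 2023 CPM in the DMSO libraries. The groups were far apart, with replicate 2 the lowest of the 4-OI libraries. The fall was 24.5% (log2 fold change -0.41, SE 0.03, edgeR adjusted p = 4.71e-10). Hsp90b1 encodes GRP94, the ER form of Hsp90 that matures integrins and Toll-like receptors. Its values were 2078, 2044, 2083 and 2216 CPM in 4-OI and 2471, 2555, 2533 and 2459 CPM in DMSO libraries, and replicate 4 was the highest of the 4-OI libraries yet below all of DMSO. It was 15.9% lower (log2 fold change -0.25, SE 0.03, edgeR adjusted p = 4.05e-07). A pseudogene, 1810014B01Rik, overlaps it on the opposite strand, and whether counting used strand is not stated in the sources used here. The pseudogene averaged 4.19 TPM over all libraries, against 1284 TPM for Hsp90b1, and its effect was not tested. The TPM of Hspa5 relative to Hsp90b1 separated the groups: this ratio was 0.841 to 0.856 in 4-OI and 0.942 to 0.981 in DMSO libraries, though this difference was not tested.

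Calr encodes calreticulin, a soluble lectin chaperone of glycoproteins, and Canx its membrane-bound partner calnexin. Calr (chromosome 8, 84841850 to 84846934) stood at 1270.0, 1271, 1274 and 1288 CPM in 4-OI libraries, against 1614, 1639.6, 1590.2 and 1610.4 CPM in DMSO libraries. The 4 libraries within a group differed by far less than the groups did. Calr was 20.9% lower (log2 fold change -0.34, SE 0.02, edgeR adjusted p = 2.53e-10), and with 1324 ± 20.3 TPM in 4-OI and 1659.5 ± 37.8 TPM in DMSO (SD, n = 4 each) it was the most abundant member per length. Canx averaged 857 ± 28.1 CPM in 4-OI and 937 ± 9.02 CPM in DMSO (SD, n = 4 each), 8.55% lower (edgeR adjusted p = 4.26e-04). The TPM ratio of Calr to Canx was 2.27 to 2.47 in 4-OI and 2.69 to 2.84 in DMSO libraries, with no overlap and no test made.

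Another gene of the calreticulin family went the other way. Calr3 encodes calsperin, a calreticulin paralog known from the mouse testis, where it is needed for fertile sperm. Its counts were 237, 284, 282 and 298 in 4-OI libraries, against 30, 34, 29 and 35 in DMSO libraries, or 9.54 ± 0.386 CPM in 4-OI and 1.24 ± 0.135 CPM in DMSO (SD, n = 4 each). That is 7.74-fold higher in 4-OI (log2 fold change 2.95, SE 0.10, edgeR adjusted p = 6.39e-15), the 13th highest log2 fold change among all genes tested. It remained a rare transcript: its TPM was 0.644% to 0.749% of that of Calr in 4-OI and 0.0632% to 0.0806% in DMSO libraries. On the log2(TPM + 1) scale, which understates changes of rare transcripts, its log2 fold change was 2.22, and over all alternatives it ran from 2.05 to 3.02. Calr3 lies on chromosome 8, 72424176 to 72443870, on the minus strand. The pseudogene Gm3835 within it had 0 or 1 count per library, and the divergent gene 1700030K09Rik starts 10 bases away, with counts of 262, 304, 350 and 344 in 4-OI and of 250, 222, 225 and 344 in DMSO libraries. These neighbour counts are not scaled to library size, so they do not compare the groups.

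**Figure D3:**
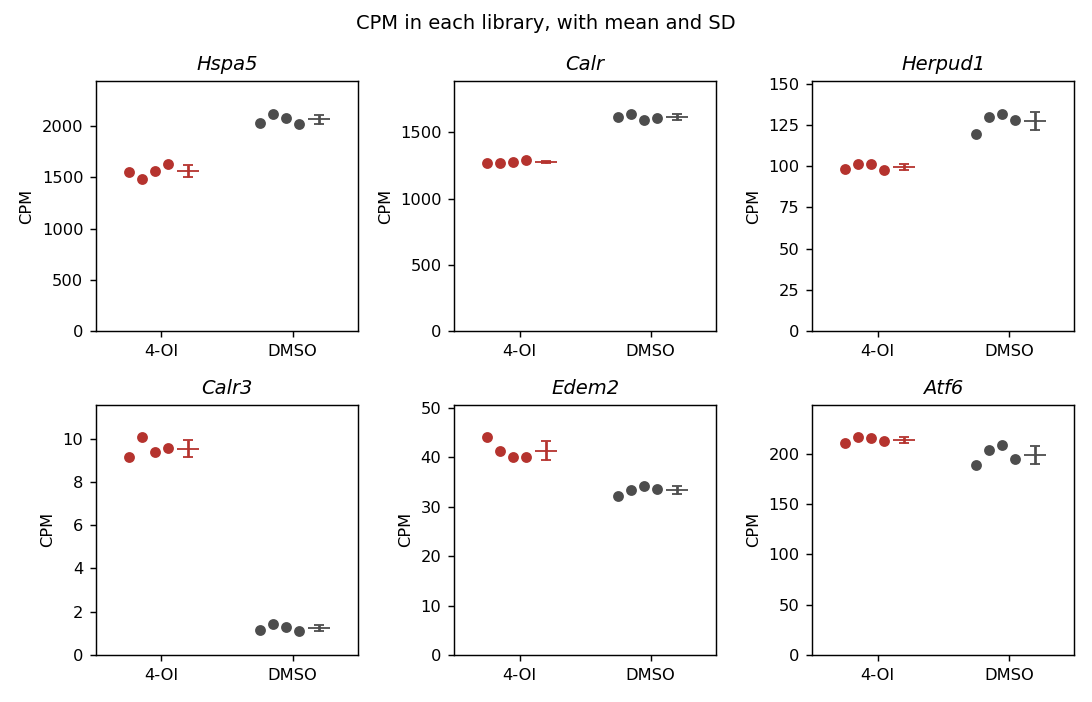
CPM in each library (points) with mean and SD (bars) for Hspa5, Calr and Herpud1, which fell, and for Calr3, Edem2 and Atf6, which rose; 4-OI is left of DMSO and each axis starts at 0. In all 6 genes the 4-OI libraries do not overlap the DMSO libraries.

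Of the cochaperones that regulate BiP, those grouped here with the chaperones were lower. Hyou1, a nucleotide exchange factor known as GRP170, averaged 292 ± 3.27 CPM in 4-OI and 336 ± 4.71 CPM in DMSO libraries (SD, n = 4 each; log2 fold change -0.20). Of the J proteins that hand clients to BiP, Dnajc3 (p58IPK) fell by 16.5%, Dnajb11 (ERdj3) by 9.04% and Dnajc10 (ERdj5, which also reduces disulfides) by 4.52%. Dnajc10 had 214, 207, 215 and 214 CPM in 4-OI against 218, 223, 229 and 219.9 CPM in DMSO libraries, and its call was weak (edgeR adjusted p = 0.0347). It ended in 9 of 17 alternatives, among them library totals (0.112), no filter (0.158) and the omission of 4-OI replicate 1 (0.0707), 4-OI replicate 2 (0.103), DMSO replicate 2 (0.0798) or DMSO replicate 3 (0.111). Sil1, another nucleotide exchange factor of BiP but no member, was named after its value was seen. It was higher, at 39.9, 37.3, 39.3 and 39.5 CPM in 4-OI against 31.4, 33.1, 35.7 and 34.9 CPM in DMSO libraries (log2 fold change 0.21, edgeR adjusted p = 7.97e-04). The J protein Dnajb9, described with the degradation genes, was not called.

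Sdf2l1, a partner of ERdj3 that keeps clients soluble, had the largest estimated fall among the members, within its error of Creld2 and Hspa5. Its values were 34.7, 37.4, 35.6 and 35.2 CPM in 4-OI and 43.9, 51.2, 48.4 and 49.8 CPM in DMSO libraries, where replicate 1 was the lowest of DMSO but above all of 4-OI. It was 26.0% lower (log2 fold change -0.43, SE 0.04, edgeR adjusted p = 1.75e-07). Creld2, a cysteine-rich ER protein known as a stress-inducible gene, had 90.5, 92.4, 92.2 and 89.5 CPM in 4-OI and 121, 123, 126 and 119 CPM in DMSO libraries. Its spread within each group was small, and it was 25.4% lower (log2 fold change -0.42, SE 0.03, edgeR adjusted p = 1.01e-10). Manf, a secreted survival factor that binds BiP, was 19.3% lower, with 149 ± 6.50 CPM in 4-OI and 185 ± 4.71 CPM in DMSO (SD, n = 4 each). Its locus overlaps Dcaf1 on the opposite strand and Rbm15b on the same strand, and the effect of these overlaps was not tested. Fkbp2, a prolyl isomerase of the ER, was 16.4% lower (edgeR adjusted p = 1.54e-05).

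All 6 disulfide isomerases, which form and reshuffle the disulfide bonds of secretory proteins, were lower in 4-OI. Pdia6, which associates with BiP, led with 611, 595, 630.3 and 628 CPM in 4-OI against 767, 788, 791 and 748 CPM in DMSO libraries. It was 20.3% lower (log2 fold change -0.33, SE 0.03, edgeR adjusted p = 4.32e-09), without overlap of the groups. P4hb, the classical isomerase PDI and a subunit of prolyl 4-hydroxylase, averaged 815 ± 15.1 CPM in 4-OI and 984 ± 7.47 CPM in DMSO (SD, n = 4 each), 17.1% lower. Pdia4 (ERp72) was 16.0% lower, and Pdia3 (ERp57), which works on glycoproteins with the calreticulin lectins, fell by 0.18 on the log2 scale. Pdia5, the least abundant at 8.70 ± 0.0845 TPM in 4-OI and 9.89 ± 0.608 TPM in DMSO (SD, n = 4 each), was 12.9% lower (edgeR adjusted p = 0.0129), a call not made by DESeq2 (adjusted p = 0.0625) or on log2(FPKM + 1) (0.0637).

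Txndc5 (ERp46), an isomerase with thioredoxin domains, changed least of the 6, with 426, 436, 420.1 and 419.5 CPM in 4-OI and 441, 454, 443 and 445 CPM in DMSO libraries. The groups did not overlap, though the nearest libraries differed by little, and the log2 fold change was -0.07 (SE 0.02, edgeR adjusted p = 0.0236). That call ended in 8 of 17 alternatives, with adjusted p of 0.0703, 0.0774 and 0.0878 without 4-OI replicate 1, 4-OI replicate 3 and DMSO replicate 2, and of 0.0955 with library totals, and it was also lost without a filter and on TPM or FPKM. Pdia6, Pdia3 and Txndc5 overlap Atp6v1c2, Catsper2 and Bmp6 on the opposite strand, whose reads cannot be told apart without strand. Atp6v1c2, Catsper2 and Bmp6 averaged 2.03, 0.88 and 0.83 TPM over all libraries. Pdia6, Pdia3 and Txndc5 averaged 511, 672 and 235 TPM, and the effect of the overlaps was not tested.

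The 3 translocon genes fell together. Sec61a1, the pore of the channel, was 9.71% lower, at 196 ± 2.90 CPM in 4-OI and 217 ± 3.99 CPM in DMSO (SD, n = 4 each). Sec61b, a small subunit of the channel, had 97.8, 105, 104 and 109 CPM in 4-OI against 113, 121, 115 and 118 CPM in DMSO libraries, with the groups close but not overlapping (edgeR adjusted p = 3.61e-04). Ssr1, the TRAP subunit that aids the entry of some signal sequences, was 12.6% lower (log2 fold change -0.19, edgeR adjusted p = 1.85e-05).

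**Figure D4:**
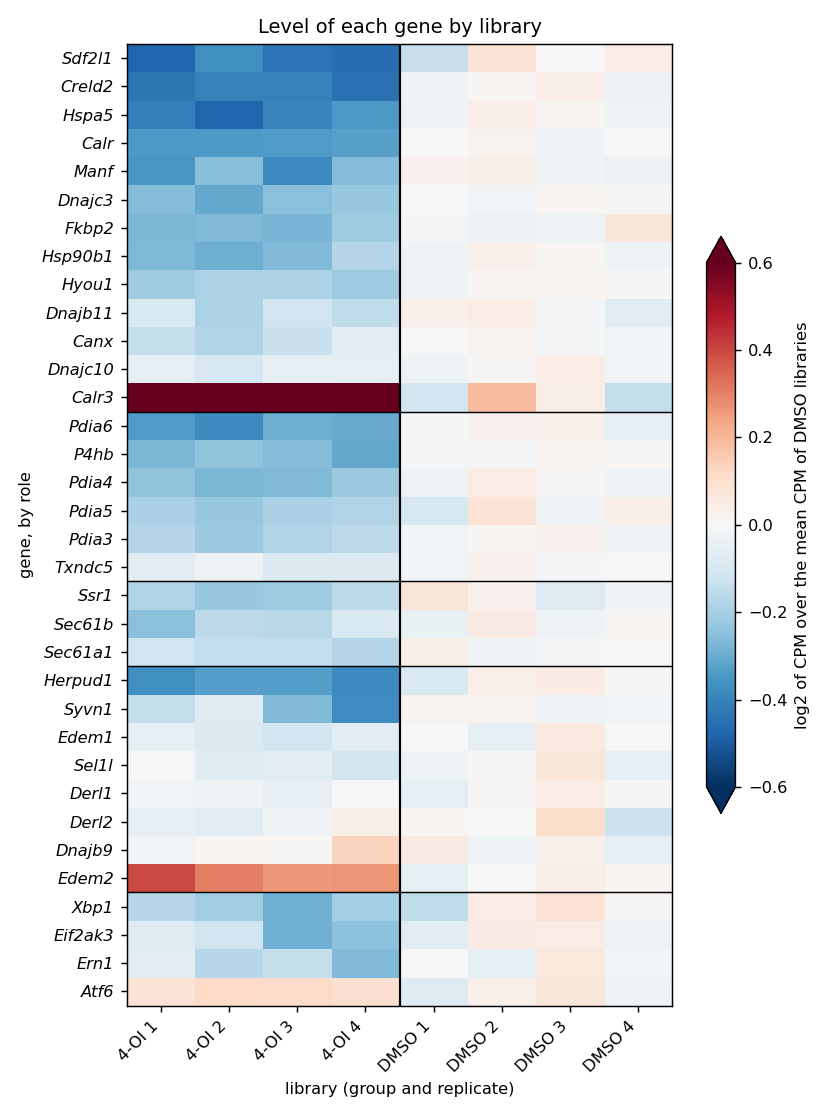
Colour shows log2 of CPM in each library over the mean CPM of the 4 DMSO libraries, for the 34 tested members in rows, grouped from top to bottom as chaperones, disulfide isomerases, translocon, degradation, and sensors with Xbp1; 4-OI libraries are on the left, and the colour scale ends at 0.6 to either side. The upper 3 blocks are blue to pale blue in all 4-OI libraries but for Calr3. The degradation block holds the blue row of Herpud1, paler rows and the red row of Edem2.

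Genes of ER-associated degradation gave mixed calls, 3 lower, 1 higher and 4 not called. Herpud1, a ubiquitin-like membrane protein that helps assemble the degradation complex, was lower, with 98.4, 101, 101 and 97.7 CPM in 4-OI and 119, 129.8, 132 and 128 CPM in DMSO libraries. DMSO replicate 1 was the lowest of its group and above all of 4-OI. The gene fell by 21.6% (log2 fold change -0.35, SE 0.03, edgeR adjusted p = 1.37e-08), and Gm15890 overlaps it on the opposite strand. Syvn1, the ubiquitin ligase HRD1, had 31.6, 33.1, 29.1 and 27.0 CPM in 4-OI and 35.4, 35.4, 34.3 and 34.5 CPM in DMSO libraries, with 4-OI replicate 4 the lowest. Its log2 fold change was -0.21 (SE 0.05, edgeR adjusted p = 0.00296), and limma on TPM or FPKM did not call it (0.0655 to 0.0833). Syvn1 overlaps Mrpl49 on the opposite strand, and the effect of this overlap was not tested.

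Edem2, which starts the mannose trimming that marks misfolded glycoproteins in human cells, was higher in 4-OI. Its values were 44.1, 41.3, 40.0 and 40.1 CPM in 4-OI, against 32.2, 33.5, 34.3 and 33.7 CPM in DMSO libraries. Replicate 1 was the highest of 4-OI, and all 4 lay above DMSO. The gene was 1.24-fold higher (log2 fold change 0.31, SE 0.04, edgeR adjusted p = 5.30e-06), and it kept its call in all 17 alternatives. It lies on chromosome 2, 155701677 to 155729475, and no other annotated gene overlaps it. Relative to Herpud1, Edem2 stood at a TPM ratio of 0.323 to 0.360 in 4-OI and 0.217 to 0.230 in DMSO libraries, without overlap. Relative to Edem1 the ratio was 0.882 to 1.14 in 4-OI and 0.821 to 0.904 in DMSO libraries, where the groups overlapped, and neither ratio was tested. Its relative Edem1, which delivers trimmed glycoproteins to the degradation complex, had 99.9, 98.1, 96.1 and 99.1 CPM in 4-OI and 104, 99.9, 108 and 104 CPM in DMSO libraries, with the groups overlapping. Edem1 was called lower (log2 fold change -0.08, edgeR adjusted p = 0.0281), but its TPM was 28.8 ± 3.37 in 4-OI and 28.0 ± 1.40 in DMSO (SD, n = 4 each), in the other direction. Its call was lost without 4-OI replicate 2 or 3 or DMSO replicate 1, 3 or 4 (edgeR adjusted p = 0.0518 to 0.101), with library totals (0.0825) and without a filter (0.0999).

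The remaining degradation members gave no call. Sel1l, the scaffold of the HRD1 complex, had 143, 136, 136 and 132 CPM in 4-OI and 139.8, 144, 150.2 and 138 CPM in DMSO libraries (log2 fold change -0.06, SE 0.03, edgeR adjusted p = 0.107), and a correction for GC content and length brought it to a call (-0.07, adjusted p = 0.0406). Derl1 and Derl2 encode derlins, membrane proteins of the exit channel. Derl1 averaged 161 ± 2.14 CPM in 4-OI and 164 ± 4.81 CPM in DMSO (SD, n = 4 each), with a log2 fold change of -0.02 (SE 0.03, edgeR adjusted p = 0.519). Derl2 averaged 43.7 ± 1.37 CPM in 4-OI and 44.5 ± 2.93 CPM in DMSO (SD, n = 4 each), with a log2 fold change of -0.02 (SE 0.04, edgeR adjusted p = 0.747). Derl2 overlaps Mis12 on the opposite strand, and the effect of this overlap was not tested. Dnajb9, the J protein ERdj4 that brings BiP to IRE1 and aids degradation, had 27.1, 27.5, 27.4 and 30.0 CPM in 4-OI and 28.3, 26.8, 27.9 and 26.4 CPM in DMSO libraries (log2 fold change 0.04, SE 0.05, edgeR adjusted p = 0.552). These misses do not show that the levels were equal.

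Derl3, a derlin known from secretory tissues, was near the limit of detection and fell under the filter. Its counts were 2, 2, 1 and 0 in 4-OI libraries and 1, 1, 0 and 0 in DMSO libraries. A count of 0 allows up to 3 counts, which is 0.0962 CPM in 4-OI replicate 4 and 0.131 and 0.0957 CPM in DMSO replicates 3 and 4, and this covers counting error only. A two-sided exact permutation test gave p = 0.4 over 70 arrangements, where 4 against 4 libraries can reach 0.0286 at the smallest, and no difference was detected.

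Of the sensors, Atf6 was higher and Ern1 and Eif2ak3 were lower. Atf6, the sensor that is cleaved in the Golgi into a transcription factor, had 211, 217, 216 and 213 CPM in 4-OI against 189, 204, 209 and 195 CPM in DMSO libraries. The groups did not overlap, though 4-OI replicate 1 and DMSO replicate 3 came close. Atf6 was higher (log2 fold change 0.10, SE 0.03, edgeR adjusted p = 0.00661), and its adjusted p stayed at or under 0.0464 in 17 alternatives. Ern1 encodes IRE1, the nuclease that splices Xbp1 mRNA. Its values were 93.1, 86.7, 88.5 and 81.3 CPM in 4-OI and 97.9, 94.3, 102 and 96.7 CPM in DMSO libraries, each of 4-OI below each of DMSO (log2 fold change -0.16, SE 0.04, edgeR adjusted p = 0.00128). Eif2ak3 encodes PERK, the kinase that slows translation, and had 21.7, 21.02, 18.7 and 19.3 CPM in 4-OI and 21.8, 23.7, 23.6 and 22.4 CPM in DMSO libraries, with the nearest libraries almost level. Its log2 fold change was -0.18 (SE 0.05, edgeR adjusted p = 0.0113), and its call ended without 4-OI replicate 3 (edgeR adjusted p = 0.0515). Limma on TPM or FPKM called neither Ern1 (0.118 to 0.147) nor Eif2ak3 (0.161 to 0.168).

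Xbp1, the transcription factor downstream of IRE1, had 45.3, 44.0, 41.7 and 44.1 CPM in 4-OI and 45.8, 52.5, 54.1 and 51.2 CPM in DMSO libraries. DMSO replicate 1 stood below the rest of its group and just above 4-OI. The gene was 13.9% lower (log2 fold change -0.22, SE 0.04, edgeR adjusted p = 6.35e-04). Gene-level counts do not separate its spliced from its unspliced form, and neither cleavage of ATF6 nor any protein was measured. By TPM, Atf6 stood to Ern1 at 1.52 to 1.79 in 4-OI and 1.23 to 1.47 in DMSO libraries, and to Eif2ak3 at 5.64 to 6.86 in 4-OI and 4.71 to 5.19 in DMSO. The TPM of Hspa5 was 22.6 to 24.8 times that of Atf6 in 4-OI and 32.6 to 35.2 times in DMSO libraries. None of these 3 ratios overlapped between the groups, and none was tested.

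Other genes of the pathway were called in both directions, to be read next to the 19.6% lower and 19.3% higher of all genes tested. Among 33 tested folding and disulfide enzymes outside the members, 13 were lower, 6 were higher and 14 were not called, with a median log2 fold change of -0.02. Ero1l, the oxidase that recharges PDI, had 283, 258, 277 and 282 CPM in 4-OI and 343, 411, 462 and 378 CPM in DMSO libraries, with no overlap (log2 fold change -0.53, edgeR adjusted p = 4.14e-07). Creld1, a relative of Creld2, rose (0.44), as did the prolyl isomerases Fkbp14 (0.36) and Fkbp7 (0.34). Of 25 further degradation genes, 10 were higher, 2 lower and 13 not called, with a median of 0.05. Those that rose included the extraction ATPase Vcp (0.22) and the ER protein Ubxn4 that binds it (0.34), whereas Selenos, a selenoprotein of the exit complex, was lower (-0.38).

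In the oligosaccharyltransferase, which adds glycans to entering chains, 7 of 12 genes were lower, 5 were not called and the median log2 fold change was -0.12. Magt1 (-0.29), Rpn1 (-0.17), Rpn2 (-0.16) and Ostc (-0.16) were examples. Of 22 further genes of the translocon, signal peptidase and signal recognition particle, 8 were lower, Srp14 (0.14) was higher and 13 were not called (median -0.03). Spcs3 of the signal peptidase fell by 0.25, Sec61g by 0.19 and the TRAP subunits Ssr2 and Ssr4 by 0.17 and 0.17 on the log2 scale. Genes of the COPII coat and of retrieval to the ER gave 7 lower, 2 higher and 10 not called of 19 (median -0.05). Sec24d, a coat subunit, was higher (0.25), while Tmed10 (-0.15), Mcfd2 (-0.15) and Surf4 (-0.07), all of cargo receptors, were lower. The call of Mcfd2 ended on TPM and FPKM (adjusted p = 0.0598 to 0.0782). That of Surf4 ended there too (0.0734 to 0.0747), as well as with library totals (0.0739), with no filter (0.109), and without 4-OI replicate 1 (0.0855) or DMSO replicate 2 (0.0595).

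Of 16 tested regulators outside the members, 4 were lower, 1 was higher and 11 were not called (median log2 fold change -0.06). Creb3l1, an ER-anchored transcription factor of secretory cells, was lower (-0.46), as were Atf6b, the paralog of Atf6 (-0.26), and Traf2, an adaptor of IRE1 (-0.17). Mbtps2, a Golgi protease that releases ATF6, was higher (0.19). Of 10 effectors of the PERK branch, 2 were higher, 2 were lower and 6 were not called (median -0.06). Ddit3, the stress transcription factor CHOP, had 56.7, 56.5, 57.5 and 59.5 CPM in 4-OI and 67.5, 69.2, 74.4 and 71.8 CPM in DMSO libraries (log2 fold change -0.30, edgeR adjusted p = 7.95e-07), and Asns, asparagine synthetase, was higher (0.28).

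**Figure D5:**
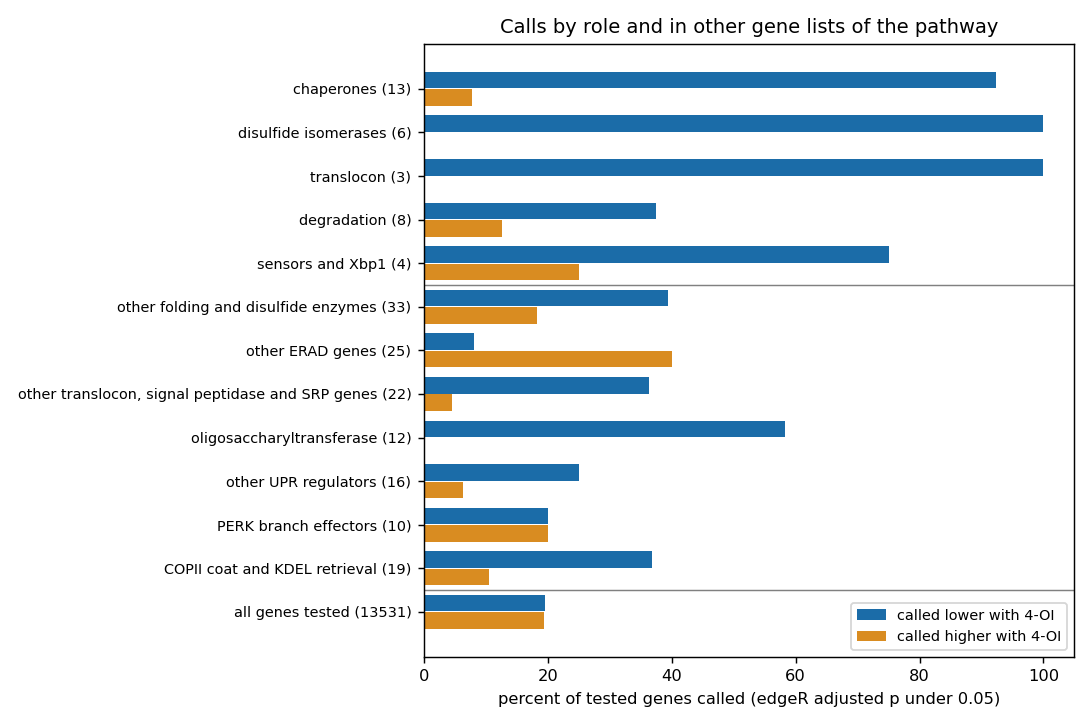
Percent of tested genes called lower and higher in 4-OI (edgeR adjusted p under 0.05) for the members by role, for the other gene lists of the pathway and for all genes tested, with the number tested in brackets. Chaperones, disulfide isomerases and translocon genes reach 92.3% to 100% lower, degradation members 37.5%, other ERAD genes 8.0%, and all genes tested 19.6%.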

How the data were processed

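RNA was measured in 8 libraries of YUMM5.2 cells; titles gave each library's group, and column names matched its description. Per the submitters' processing notes, the tools include STAR 2.7.8a, RSEM 1.3.3 and cutadapt 2.3, with build GRCm38. The sources used here give neither the annotation release nor the strand setting, so overlapping genes, and paralogs that share reads, are less certain. The authors deposited expected counts per gene, whole numbers in every cell and used as they stand, and TPM and FPKM, which correct for length. Tests ran on the expected counts in edgeR 4.0.16 (R 4.3.3): filterByExpr with a minimum count of 10, TMM factors, the two-sided quasi-likelihood F test without covariates, and Benjamini-Hochberg adjustment over the 13531 genes passing the filter, called under 0.05. CPM are counts over total times TMM factor. Levels between genes are compared by TPM only. Derl3, under the filter, was compared by an exact permutation test of CPM from library totals. The totals, 22962963 to 31361677 counts, limit precision for rare transcripts, and 28382 genes were at 0 throughout. The chi-square per degree of freedom between libraries of a group was 1.88 to 4.84, above sampling noise. No library was therefore counted as a rerun of another, which does not show that the cultures were separate.

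Alternatives were library totals, DESeq2 1.42.0, no filter, limma 3.58.1 with a trend on log2(TPM + 1), log2(TPM + 0.1) and log2(FPKM + 1), leaving out each library, a replicate block, and a spline correction for GC content and length. The procedure was run on simulated counts with far fewer changed genes than were called here, and no result above rests on that run. Promoters are RefSeq windows (GRCm38.p6) matched by gene identifier, and positions are from GENCODE M21. The members, their roles and the other lists were chosen with earlier results of these data known, so no p is adjusted over a list and no list is tested. Named genes are every member and, of each other list, up to 4 called genes with a mean of at least 5 CPM and no overlap between groups, by size of change; Srp14 and Sil1 were named after their values were seen. Some genes that the rule or the marker lists hold are not reported here. Figures were drawn with matplotlib 3.10.9.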

Additional observations from a re-analysis of the deposited data

Results flagged for a closer look

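Dnajb9 in 4-OI replicate 4, at 30.01 CPM, stood apart from the other 4-OI libraries, which had 27.05 to 27.55 CPM. The gap was 0.833 of the group's range, above Dixon's critical value for 4 libraries. It was the single such library in 68 groups looked at (34 members in 4-OI and in DMSO), where chance gives about 5% of groups. Without that library Dnajb9 was still not called (edgeR adjusted p = 0.974, with 0.362 to 0.974 over all alternatives).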

How the results depend on the processing

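Of 17 alternatives, each kept Calr3, Edem2 and Atf6 higher, and 20 to 28 members were called lower, against 27. The counts were 24 with library totals, 26 with DESeq2, 24 without a filter, 21 on log2(TPM + 1), 21 on log2(TPM + 0.1), 20 on log2(FPKM + 1) and 28 with the GC and length correction. Leaving out each library gave 24 to 27 members lower, 16 to 18 folding genes lower, and 2 to 3 degradation genes lower. Over all genes, leaving out a library gave 2249 to 2522 higher and 2369 to 2666 lower. Limma called fewer genes lower, 1620 on log2(TPM + 1), 1615 on log2(TPM + 0.1) and 1535 on log2(FPKM + 1), against 2646, and 1 degradation gene in place of 3 on each scale; the cause was not tested.

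Single genes reversed in 7 cases, none of them called there: Edem1 was at 0.0337, 0.0346 and 0.0415 and Derl1 at 0.0059, 0.006 and 0.0144 on log2(TPM + 1), log2(TPM + 0.1) and log2(FPKM + 1), and Derl2, at -0.02 with all libraries, ran from -0.0641 to 0.0151 as libraries were left out, above 0 without DMSO replicate 3 alone. Among named genes, 49 single results lost a call, the 3 reversals of Edem1 included, 2 gained a call and 969 did neither. Scalings moved the median of all genes by at most 0.02 on the log2 scale.

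Replicate numbers did not pair the libraries: deviations of same-numbered libraries correlated at -0.016 to 0.070 (4 pairs) and other pairs at -0.117 to 0.041. With the replicate block, 2526 genes were higher and 2618 lower, and the members again gave 3 higher and 27 lower; block and GC correction together gave 28 members lower, with Sel1l added (-0.07, adjusted p = 0.0479).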

Other observations

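Outside the members, 26 genes carried an exact ERSE in their window, and 8 of them passed the filter. Acacb, an acetyl-CoA carboxylase, was higher in 4-OI (1.56 CPM in 4-OI and 0.746 CPM in DMSO, log2 fold change 1.05, edgeR adjusted p = 4.18e-04), and Hnrnpa3, an RNA-binding protein gene, was lower (-0.15, edgeR adjusted p = 5.39e-04). The other 6 were not called, with Calr4, another calreticulin family gene, at 0.34 (edgeR adjusted p = 0.101) and Alg12, a glycan mannosyltransferase, at -0.08 (0.235).

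Neighbours of the members that rose were looked at after their values were seen. Near Calr3, the 5′ end of Eps15l1 is 2716 bases away, with counts of 1194, 1358, 1335 and 1439 in 4-OI and of 1197, 1071, 992 and 1402 in DMSO libraries. Its counts are not scaled to library size either, so they do not compare the groups. Near Edem2, Trpc4ap is 9293 bases away. The core of the antioxidant response element, TGACNNNGC, was also searched after the values were seen. It stood in 7 of the 30 members with a window (23.3%) and in 11.5% of all genes with a window. Calr, Herpud1, Ern1, Pdia3, Sec61b and Txndc5, all called lower, were among the 7. Of all 34 tested members 27 were lower, and of all genes tested 19.6%, and a link of the core to the calls was not tested. For Pdia3 and Txndc5 the core lay inside the gene's GENCODE span. Calr3, which rose, was also among the 7, through a window at another RefSeq start inside the gene, while its promoter printed above held none.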
